A study of Mus musculus with 8 samples.

Results

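The genes described are 10 of the 20692 genes measured, chosen by name: the nucleotide receptors P2ry12, P2ry13, P2ry6, P2rx4 and P2rx7, the ectonucleotidase Entpd1, the lipid receptor Gpr34, the fractalkine receptor Cx3cr1, its ligand Cx3cl1, and the microglial surface protein Tmem119. They were followed in 8 RNA-seq libraries of central amygdala cells sorted for tdTomato from male mice, 1 mouse and about 1000 cells per library. In 4 libraries (PKCd) the mice carried the PKC delta-type::Cre driver, and in the other 4 (SST) they carried SST::Cre; every mouse also carried the reporter Rosa::loxP-STOP-loxP-td-Tomato, which Cre switches on. PKCd replicates 1 and 2 came from mice of 9 weeks and replicates 3 and 4 from mice of 18 weeks, while SST replicates 1 and 2 came from mice of 8 weeks and replicates 3 and 4 from mice of 20 weeks. Recombination is permanent, so the reporter marks every cell in which the driver was ever active. All 10 genes had enough reads to be tested. Read counts were estimated per RefSeq transcript, summed per gene and compared with edgeR's quasi-likelihood test with a term for age class; adjusted p-values cover all genes tested, with a threshold of 0.05. Levels are in TPM, a share of all transcripts that takes transcript length into account.

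Microglia are the resident macrophages of the brain. Their processes move towards ADP, which damaged or active cells release and which P2Y12 detects, whereas the UDP receptor P2Y6 is linked to phagocytosis and the ATP-gated channel P2X7 to inflammasome activation. CD39, the product of Entpd1, breaks down ATP and ADP at the cell surface. Neurons are the main source of fractalkine in the brain, and its receptor Cx3cr1 is carried by microglia.

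The starts of 4 of these genes are shown because P2ry12 and P2ry13 are neighbours that stood high in the same libraries, because nearly all Entpd1 reads were assigned to 1 of 2 starts, and because P2rx4 did not separate the sorts. Each sequence is the 250 bases before the start used by the promoter table (RefSeq, GRCm38.p6), which is that of the counted transcript for P2ry13, P2rx4 and the Entpd1 entry; the counted P2ry12 transcript starts further in, at 59262831. The gene model of P2rx4 begins at 122707518, before the start of its counted transcript at 122707544, so its window reaches into that model. In the sequences capitals mark the PU box, GAGGAA on either strand (TTCCTC when read on the strand shown), the element after which the myeloid factor PU.1 was named. P2ry12, chr3:59262986-59263235, minus strand, has no match. P2ry13, chr3:59210883-59211132, minus strand, has 1 match. Entpd1 is shown at its downstream start, chr19:40659520-40659769, plus strand, with 2 matches, and P2rx4 at chr5:122707294-122707543, plus strand, with no match.
P2ry12: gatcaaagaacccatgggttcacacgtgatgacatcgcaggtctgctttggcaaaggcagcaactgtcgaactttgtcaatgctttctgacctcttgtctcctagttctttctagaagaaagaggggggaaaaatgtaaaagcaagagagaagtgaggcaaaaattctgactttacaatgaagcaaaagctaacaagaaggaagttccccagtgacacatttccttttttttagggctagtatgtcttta
P2ry13: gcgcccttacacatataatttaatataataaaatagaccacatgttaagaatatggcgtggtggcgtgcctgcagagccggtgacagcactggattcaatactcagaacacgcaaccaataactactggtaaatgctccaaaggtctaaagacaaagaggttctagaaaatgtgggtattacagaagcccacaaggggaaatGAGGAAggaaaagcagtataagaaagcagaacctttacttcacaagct
Entpd1: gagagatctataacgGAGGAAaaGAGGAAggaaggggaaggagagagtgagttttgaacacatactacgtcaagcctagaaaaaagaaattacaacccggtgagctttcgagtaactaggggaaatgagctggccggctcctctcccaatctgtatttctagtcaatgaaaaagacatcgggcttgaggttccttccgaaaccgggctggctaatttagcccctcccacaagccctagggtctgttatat
P2rx4: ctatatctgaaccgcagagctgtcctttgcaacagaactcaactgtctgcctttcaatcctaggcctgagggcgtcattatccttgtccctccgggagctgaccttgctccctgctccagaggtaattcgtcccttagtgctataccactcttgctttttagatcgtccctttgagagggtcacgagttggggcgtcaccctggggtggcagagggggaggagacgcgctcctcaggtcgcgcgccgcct
A PU box was present in 23.3% of 32851 promoter windows of the same length, so a match is a description of these letters and not a binding site. The window of P2rx4 held 13 CpG dinucleotides, against 3 for P2ry12, 5 for P2ry13 and 8 for the Entpd1 window shown. The median over all windows was 6. The upstream Entpd1 window held 18 CpG dinucleotides, that of Cx3cl1 14, that of Cx3cr1 4 and those of P2rx7 6 and 4. Promoter entries were found for 7 of the 10 genes; Gpr34, P2ry6 and Tmem119 had no entry. The upstream Entpd1 window and that of Cx3cr1 held no match, and that of Cx3cl1 held 2.

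Libraries of the 8 to 9 week mice held 10316149 to 18242496 estimated counts and those of the 18 to 20 week mice 964361 to 2522749, so age class and depth cannot be told apart. Prkcd stood at 106.5 to 225.7 TPM in PKCd and 0 to 30.2 TPM in SST libraries (exact two-sided permutation p = 0.0286, the smallest possible with 4 against 4; 0.0571 adjusted for 2 genes). Sst overlapped (exact permutation p = 0.0571), because PKCd replicate 2, at 222.7 TPM, lay within the SST range of 116.3 to 296.2 TPM. Neuron markers (10 genes) summed to only 122.3 to 652.2 TPM over the 8 libraries, while 8 oligodendrocyte markers summed to 10181 to 59654 TPM. Microglial markers (12 genes, none of them among the 10) summed to 27972 to 44450 TPM in PKCd and 416.7 to 4951 TPM in SST libraries. All 12 were tested and 4 were past the threshold in edgeR (Csf1r, C1qa, Fcrls and Selplg), all towards higher values in PKCd libraries. Over all 11328 genes tested, 0.282% were called higher and 0% lower. The median log2 fold change was 4.42 for the 12 markers and -0.08 for all tested genes. In bulk RNA of sorted cells, fewer cells of a type and less RNA per cell cannot be told apart.

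Most of the receptors and Tmem119 were far higher in PKCd than in SST libraries, but only 2 of the 10 passed the test. Cx3cr1 and Tmem119 passed, both higher in PKCd libraries; over all 11328 genes tested with edgeR 0.282% were called in that direction and 0% in the other. All 4 PKCd libraries lay above all 4 SST libraries for 6 of the 10 (P2ry12, P2ry13, P2ry6, Entpd1, Cx3cr1 and Tmem119), as they did for 3.88% of all tested genes, and no member lay below, as 3.05% of all genes did. The median log2 fold change (PKCd minus SST) was 3.51 for the 10 genes and -0.08 for all tested genes. An unadjusted p under 0.05 in edgeR was reached by the same 6, all higher in PKCd libraries, as by 4.33% of all genes in that direction and 6.67% in either. DESeq2 also called those 6 as higher, with 3.2% of all genes called higher and 0.812% lower. limma on log2(TPM + 1) called 5 of them, all but Entpd1 (1.21% of all genes higher, 0.0883% lower), and edgeR with no filter on low counts called Gpr34 too, 7 in all (1.29% higher, 0.303% lower). Without PKCd replicate 2, the library with Sst in the SST range, edgeR again called Cx3cr1 (log2 fold change 5.73) and Tmem119 (5.75) and no other member.

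**Figure D1:**
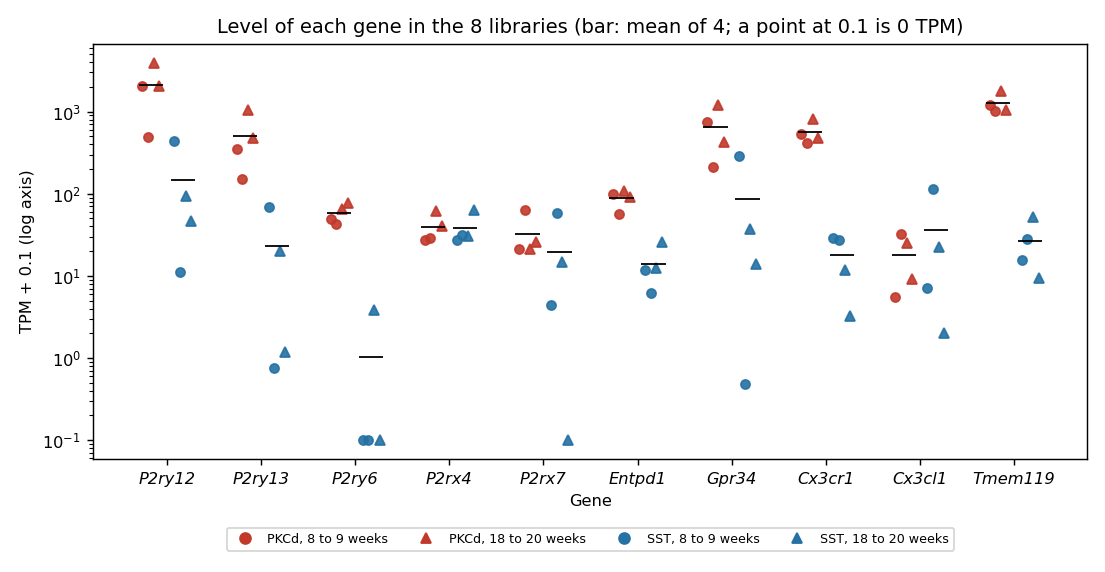
Level of each of the 10 genes in every library, as TPM + 0.1 on a log axis; red marks PKCd and blue SST libraries, circles the 8 to 9 week and triangles the 18 to 20 week mice, and bars the means of 4. The points of P2ry12, P2ry13, P2ry6, Entpd1, Cx3cr1 and Tmem119 do not overlap between the sorts, while those of P2rx4, P2rx7, Cx3cl1 and Gpr34 do.

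P2ry12, the ADP receptor that steers microglial processes (chromosome 3, 59216271 to 59262985), had the highest mean TPM of the 10 in both sorts. It was not the highest of the 10 in PKCd replicate 2 or in SST replicates 2 and 4. It had 2063, 493.4, 3929 and 2036 TPM in PKCd replicates 1 to 4 and 442.3, 11, 92.9 and 46.3 TPM in SST replicates 1 to 4. The groups did not overlap, but PKCd replicate 2, the lowest of its sort, stood only just above SST replicate 1, the highest of the other. Mean levels were 2130 ± 1406 and 148.1 ± 199 TPM (SD, n = 4 each), and the log2 fold change was 3.82 ± 1.23 (SE; edgeR adjusted p = 0.422). Without SST replicate 1 it was 6.11, with an edgeR adjusted p of 0.0139.

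P2ry13, a second ADP receptor (chromosome 3, 59207892 to 59210882), lies 5.39 kb from P2ry12. Its levels were 351.8, 151.7, 1056 and 474.4 TPM in PKCd and 69.1, 0.656, 20.0 and 1.08 TPM in SST replicates 1 to 4. As for P2ry12, replicate 3 was the highest and replicate 2 the lowest PKCd library, and SST replicate 1 and 2 were the highest and the lowest SST libraries. Its log2 fold change was 4.39 ± 1.51 (SE; edgeR adjusted p = 0.469), and 7.21 without SST replicate 1 (edgeR adjusted p = 0.0379). With that library left out edgeR called 4 of the 10 genes, and 0.473% of all genes, as higher.

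P2ry6, the UDP receptor (chromosome 7, 100937630 to 100975498), was close to absent from SST libraries. It had 49.1, 43.2, 64.4 and 77.2 TPM in PKCd replicates 1 to 4, from 1011, 552, 64 and 121 reads. SST replicate 3 had 3.69 TPM from 6 reads, and the other 3 SST libraries had 0 reads. A count of 0 allows up to 3 reads, which is 0.21, 0.187 and 1.19 CPM (counts scaled to library size) in SST replicates 1, 2 and 4, against 53.5 to 77.8 CPM in PKCd libraries; amplified reads are not independent molecules, so such limits cover counting error only. PKCd values varied little (58.5 ± 15.4 TPM, SD, n = 4), while the SST mean rested on the 6 reads of replicate 3. The fitted log2 fold change was 7.93 ± 2.06 (SE; edgeR adjusted p = 0.24, DESeq2 adjusted p = 4.40e-06), and it moved between 6.87 and 11.99 with 1 library left out, reaching the latter without SST replicate 3.

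P2rx4 and P2rx7 encode ATP-gated cation channels and lie 15.2 kb apart on chromosome 5 (P2rx7 at 122643927 to 122692336, P2rx4 at 122707518 to 122729739). Neither separated the sorts. P2rx4 had 27.4, 29.0, 61.7 and 40.3 TPM in PKCd and 27.2, 31.0, 30.6 and 63.3 TPM in SST replicates 1 to 4. The ranges coincided almost fully, with a log2 fold change of 0.04 ± 0.78 (SE; edgeR adjusted p = 0.998). That interval is wide, and a difference well above its SE could also have gone uncalled. On simulated counts the same test recovered 1.92% of genes changed 4-fold and 43.3% of those changed 16-fold.

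P2rx7 had 21.4, 62.5, 21.2 and 25.5 TPM in PKCd and 4.32, 58.4, 14.8 and 0 TPM in SST replicates 1 to 4. Replicate 2 was the highest library of each sort. The log2 fold change was 0.76 ± 1.30 (SE; edgeR adjusted p = 0.959). In replicate 2 the sum of neuron markers was also the highest of each sort, 652.2 TPM in PKCd and 557.1 TPM in SST libraries, whereas the sum of 6 oligodendrocyte precursor markers was the lowest of its sort in PKCd replicate 2 (33.6 TPM) and the highest in SST replicate 2 (2543 TPM); their part in the result was not tested. Of the 5 RefSeq transcripts of P2rx7, that of 2568 bases took 83.2% of the gene's reads in PKCd replicate 2, and that of 4936 bases took 84.8% in SST replicate 2. The transcript of 4764 bases, annotated from a start inside the gene, took 100% of the 56 and 64 reads of PKCd and SST replicate 3. These transcripts share most of their sequence and the division of reads was made by the authors' tool, so it is uncertain.

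Entpd1, which encodes CD39 (chromosome 19, 40612366 to 40741602), had 99.8, 56.5, 108.8 and 90.8 TPM in PKCd and 11.8, 6.02, 12.4 and 25.6 TPM in SST replicates 1 to 4. The lowest PKCd library was above the highest SST library. Mean levels were 89 ± 22.8 and 13.9 ± 8.27 TPM (SD, n = 4 each), with a log2 fold change of 2.69 ± 0.59 (SE; edgeR adjusted p = 0.125). The value moved little when 1 library was left out (2.44 to 3.05), and the difference was 2.98 in the younger and 2.41 in the older libraries taken alone. The transcript that starts just after the downstream promoter window printed above took nearly all Entpd1 reads in every library. The transcript from the upstream start had an estimated 259.8 reads in PKCd replicate 1, beside 4552.2 of the other, and at most 0.4 in any other library.

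Gpr34, a receptor for lysophosphatidylserine (chromosome X, 13622650 to 13640859), had 744.1, 209.8, 1214 and 425.9 TPM in PKCd and 289.5, 0.385, 37.3 and 14 TPM in SST replicates 1 to 4. SST replicate 1 lay above PKCd replicate 2, so the groups overlapped. The log2 fold change was 3.21 ± 1.56 (SE; edgeR adjusted p = 0.784), and 6.51 without SST replicate 1 (edgeR adjusted p = 0.102). Gpr34 lies inside Cask, a synaptic scaffold gene on the opposite strand, which had a log2 fold change of 0.00 ± 0.60 (SE; edgeR adjusted p = 0.999).

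The fractalkine receptor and its ligand did not go together. Cx3cr1 (chromosome 9, 120048683 to 120068296) had 540.5, 419.1, 807.7 and 471.2 TPM in PKCd and 28.7, 27.6, 11.6 and 3.11 TPM in SST replicates 1 to 4. Every PKCd library was more than 10 times higher than every SST library. The log2 fold change was 5.27 ± 0.74 (SE; edgeR adjusted p = 0.0161), but the call ended without SST replicate 2 (log2 fold change 5.34, edgeR adjusted p = 0.0532) and without SST replicate 3 (5.13, edgeR adjusted p = 0.096), with a fold about as large.

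Cx3cl1, the membrane-bound chemokine fractalkine (chromosome 8, 94772180 to 94782427), had 5.36, 32.2, 25.3 and 8.94 TPM in PKCd and 6.97, 114.8, 22.3 and 1.92 TPM in SST replicates 1 to 4. The sorts overlapped, with SST replicate 2 far above all other libraries. The log2 fold change was -0.37 ± 1.17 (SE; edgeR adjusted p = 0.984), and it was 0.87 without SST replicate 2 (edgeR adjusted p = 0.908). The TPM ratio of ligand to receptor was 0.00991 to 0.0769 in PKCd and 0.243 to 4.16 in SST libraries, which did not overlap. That gap restates the Cx3cr1 difference given above and is no separate result, since the levels of Cx3cl1 overlapped. As with P2rx7, the highest library of each sort was replicate 2, where the neuron marker sum was also highest; PKCd replicate 1, with a sum of 514.7 TPM, had the lowest Cx3cl1 level of its sort. The part of neuron content in the Cx3cl1 level was not tested.

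**Figure D2:**
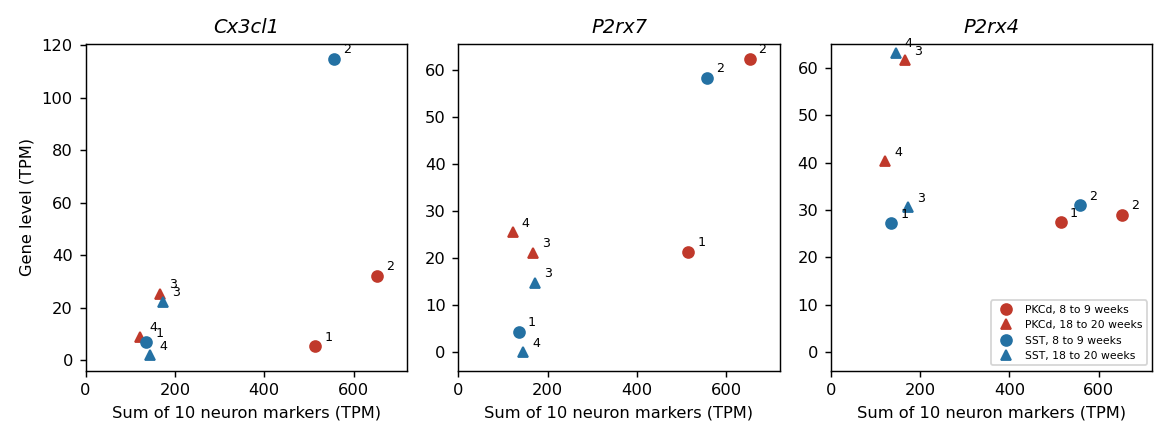
Level of Cx3cl1, P2rx7 and P2rx4 (TPM) against the summed TPM of 10 neuron markers in each of the 8 libraries; numbers are replicates, red PKCd, blue SST. Replicate 2 has the highest marker sum of each sort and the highest Cx3cl1 and P2rx7 of its sort but not the highest P2rx4; PKCd replicate 1 also stands to the right, with low levels of all 3 genes.

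Tmem119, a membrane protein used to mark microglia (chromosome 5, 113793729 to 113800396), had 1215, 1009, 1784 and 1051 TPM in PKCd and 15.6, 28.4, 51.8 and 9.34 TPM in SST replicates 1 to 4. All 4 PKCd libraries were far above all 4 SST libraries, and the highest SST library was replicate 3. The log2 fold change was 5.69 ± 0.61 (SE; edgeR adjusted p = 0.00484). The call held with each of the 8 libraries left out (edgeR adjusted p 0.0123 to 0.0335), and it ended when either age class was tested alone.

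**Figure D3:**
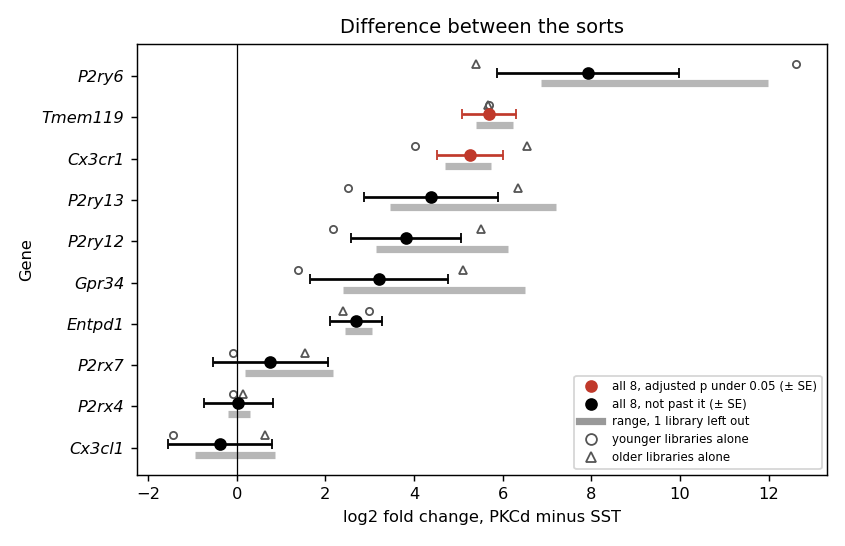
Log2 fold change (PKCd minus SST) of each gene with its SE over all 8 libraries (red where the adjusted p is under 0.05), the range over the 8 fits with 1 library left out (grey bar), and the value in each age class alone (open symbols). Cx3cr1 and Tmem119 are past the threshold, and Entpd1 and Tmem119 have the narrowest ranges away from 0. The grey bars of P2rx4 and Cx3cl1 cross 0. That of P2rx7 runs from 0.19 to 2.18, while its SE reaches below 0.

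Within a library, the members did not scale as 1 block. Relative to Tmem119, Cx3cr1 was nearly constant in PKCd libraries, at TPM ratios of 0.415 to 0.453, while P2ry12 ran from 0.489 to 2.2, P2ry13 from 0.15 to 0.592 and Gpr34 from 0.208 to 0.68. PKCd replicate 2 had the lowest ratio for P2ry12, P2ry13 and Gpr34. SST replicate 1 held 28.3 times as much P2ry12 as Tmem119 and 18.5 times as much Gpr34, while in SST replicate 2 those ratios were 0.386 and 0.0136. P2ry12, P2ry13 and Gpr34 were thus high in SST replicate 1 without a like level of Tmem119, which stood at 15.6 TPM there, within the range of the other SST libraries. SST replicate 1 also had the highest microglial marker sum of its sort, 4951 TPM against 416.7 to 1679 TPM in the other 3; its part in these ratios was not tested.

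**Figure D4:**
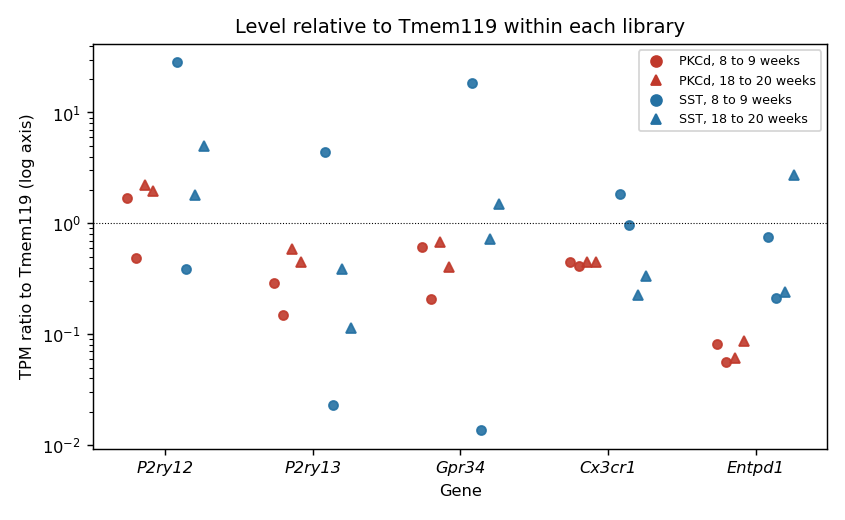
TPM of 5 genes divided by the TPM of Tmem119 in the same library, on a log axis; colours and symbols as in the plot of levels. The 4 PKCd points of Cx3cr1 fall between 0.415 and 0.453, and SST replicate 1 (blue circle at the top of P2ry12, P2ry13 and Gpr34) stands above all others.

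As shares of the summed TPM of the 9 genes other than Cx3cl1, 2 members did not overlap between the sorts. The sum was 2475 to 9047 TPM in PKCd and 162.7 to 888.5 TPM in SST libraries. Tmem119 made up 26.7 ± 9.56% in PKCd and 10.9 ± 8.46% in SST libraries (SD, n = 4 each), and P2rx4 0.813 ± 0.274% and 18.0 ± 15.4%. For Tmem119 the gap was narrow, with shares of 19.7 to 40.8% in PKCd and 1.76 to 18.8% in SST libraries. SST replicates 2 and 3, at 17.4% and 18.8%, stood close to PKCd replicate 3, at 19.7%. The mean P2rx4 level was alike in the sorts (39.6 and 38 TPM), while the mean sum was 5331 and 372.4 TPM. The share of P2rx4 thus followed the sum and shows no change of P2rx4 itself. P2ry12 took 36.8 ± 11.3% and 29.7 ± 17.8%, with overlap. In PKCd libraries the order of mean levels was P2ry12, Tmem119, Gpr34, Cx3cr1, P2ry13, Entpd1, P2ry6, P2rx4, P2rx7 and Cx3cl1. Ranges of neighbours in that order overlapped, except between P2ry13 and Entpd1. In SST libraries only Entpd1 and P2ry6, the lowest pair, had ranges apart.

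Of 11 genomic neighbours and host genes, 6 could be tested and 1 was called higher in PKCd libraries by edgeR, as were 0.282% of all genes. The called gene, Selplg, is also among the microglial markers counted above. The median log2 fold change was 1.60 for these neighbours and hosts, against -0.08 for all genes. P2ry12 and P2ry13 lie inside Med12l, a Mediator subunit gene on the opposite strand, with another receptor gene, P2ry14, beside them (59114623 to 59153492). P2ry14, which binds UDP-glucose, had 51.4, 0.285, 406.2 and 361.3 TPM in PKCd and 618.7, 214.5, 764.6 and 1407 TPM in SST replicates 1 to 4. It was thus higher on average in the SST libraries, with overlap (log2 fold change -2.85 ± 1.20, SE; edgeR adjusted p = 0.663). Med12l was low, at 0 to 3.29 TPM in the 8 libraries, from 602 reads in PKCd and 23 in SST libraries. Its log2 fold change of 3.55 ± 2.20 (SE, edgeR adjusted p = 0.853) had the direction of P2ry12 and P2ry13. Whether the counting used strand is unknown, so reads from the 2 strands cannot be told apart. Gpr171, also in this cluster, had 0 TPM in all 8 libraries, and Nyx and Gpr82 beside Gpr34 reached at most 0.59 and 0.92 TPM. P2ry2 reached at most 5.26 TPM. Beside the P2X genes, Camkk2 had a log2 fold change of 2.55 ± 1.87 (SE, edgeR adjusted p = 0.881). Its RefSeq gene model (122718380 to 122779522) overlaps the end of that of P2rx4. Near Tmem119, Coro1c had 0.66 ± 0.67 (edgeR adjusted p = 0.929), while Selplg, a selectin ligand of microglia, was higher in PKCd libraries (4.87 ± 0.67, edgeR adjusted p = 0.0161).

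**Figure D5:**
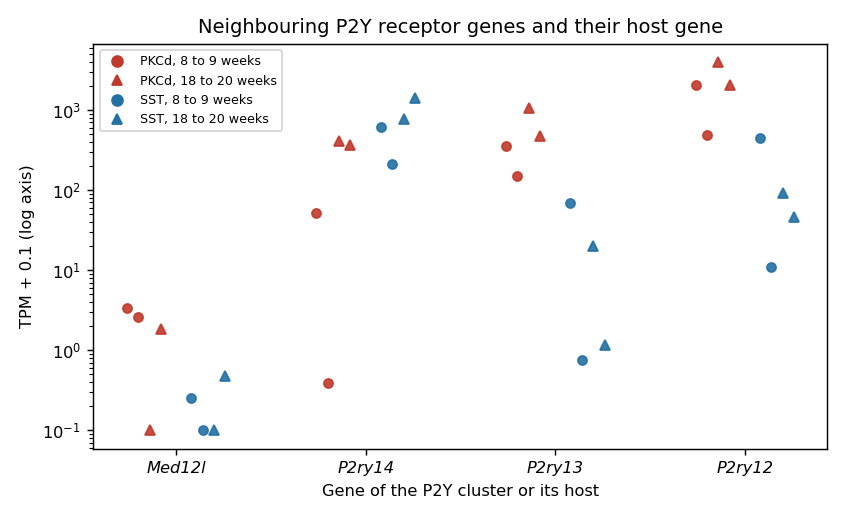
Levels (TPM + 0.1, log axis) of P2ry12, P2ry13, their neighbour P2ry14 and the host gene Med12l in each library; colours and symbols as in the plot of levels. P2ry12 and P2ry13 are higher in all PKCd libraries, P2ry14 runs up to 1407 TPM in SST libraries, and Med12l is at most 3.29 TPM.

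Other genes of nucleotide and chemotactic signalling gave no call. Of 14 other P2 and adenosine receptors, 5 could be tested and 0 passed in edgeR, with a median log2 fold change of -1.32; besides P2ry14, Adora2a, the adenosine receptor of striatal-type neurons, had -1.32 ± 1.40 (SE). The ATP-gated P2rx2, P2rx3, P2rx5 and P2rx6 stayed at or below 1.82 TPM in every library. Of 17 genes of nucleotide release, breakdown and uptake, 10 were tested and 0 passed (median -0.44). Enpp2, or autotaxin, had -2.03 ± 0.77 (edgeR adjusted p = 0.574) and Adk, adenosine kinase, -1.18 ± 0.61 (0.792). Nt5e, the enzyme that makes adenosine after CD39 has acted, was at 0 in 7 libraries and at 0.742 TPM in SST replicate 4.

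Of 18 other chemotactic receptors of myeloid cells, 9 were tested and 0 passed, although their median log2 fold change was 4.08. S1pr1, a sphingosine 1-phosphate receptor, had a log2 fold change of -0.82 ± 0.55 (SE; edgeR adjusted p = 0.868). Of 14 genes of fractalkine shedding and chemokine ligands, 12 were tested and 0 passed (median 0.57). Ctss, a protease that can release fractalkine, had 3142 to 8103 TPM in PKCd and 43.7 to 1281 TPM in SST libraries (log2 fold change 3.82 ± 1.02, SE; edgeR adjusted p = 0.265), and the chemokine Ccl4 was highest in SST replicate 1, at 1652 TPM (0.33 ± 2.19). Of 19 signalling partners of P2Y and P2X receptors, 16 were tested and 0 passed (median 1.09). Gnai2, a Gi protein subunit through which P2Y12 acts, had 1.15 ± 0.67 (edgeR adjusted p = 0.845), and Rac1 had 0.09 ± 0.50 (0.989).

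Between age classes none of the 10 genes passed, and 0.053% of all genes did in edgeR; 0 of the 10 had an unadjusted p under 0.05, as 8.35% of all genes had. P2ry6 had the largest value, 2.64 ± 1.79 (older minus younger, SE; adjusted p = 0.726), and Cx3cl1 the lowest, -1.40 ± 1.18 (0.781). The test of whether the difference between sorts itself differed between age classes called 0 of the 10 and 0% of all genes in edgeR. Cx3cr1 (interaction 2.54 ± 1.02, SE) and P2ry6 (-6.33 ± 2.66) had unadjusted p-values of 0.0317 and 0.0396, where 4.12% of all genes were under 0.05; both had an adjusted p of 1. In libraries of 1 age class alone, P2ry12 differed by 2.17 in the younger and 5.51 in the older, P2ry13 by 2.52 and 6.35, Gpr34 by 1.38 and 5.10, and Tmem119 by 5.70 and 5.66 (log2 fold change, 2 against 2 libraries, none past the threshold). The younger SST libraries include replicate 1.

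Among the genes outside the set whose level over the 8 libraries was most like the summed TPM of the 9 genes were Pon3, a paraoxonase (Pearson r of log2(TPM + 1) 0.995), Gna15, a G protein subunit of blood cells (0.990), and Tbxas1, thromboxane synthase (0.987). Gna15 had 79.5 to 233.7 TPM in PKCd and 0 to 20.9 TPM in SST libraries, and among SST libraries these 3 genes were highest in replicate 1. The genes most like Cx3cl1 were Kif1a, a neuronal motor of synaptic vesicle precursors (0.981), Bop1, a ribosome biogenesis factor (0.967), Lsm6, an RNA-binding protein (0.948), Jph3, a junctophilin of neurons (0.943), and Wdfy3, an autophagy adaptor (0.938). Kif1a had 60.2 TPM in SST replicate 2 and 11.6 TPM in SST replicate 4, the libraries where Cx3cl1 was highest and lowest. The likeness was chosen over many genes from 8 libraries that share the split by sort and depth, and is a description only.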

How the data were processed

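Each deposited file holds, per RefSeq transcript, an estimated count and a TPM value made by the authors; kallisto 0.43.0, BWA 0.7.12 and mm10 are named in the submitters' processing notes, and the column names are those of kallisto, per the file headers. The authors' TPM values correct for length and sum alike in every library, so depth shows only in the counts. Of 30404 targets, 30080 were named from the RefSeq table (GRCm38.p6), 147 from GENCODE and 177 kept their accession. The estimates were added up over a gene's targets before rounding. Mice are the replicates, so p-values cover the spread between mice together with that of sorting and amplification. The strand setting of the kit and the authors' read filters are not given in the sources used here.

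The test was edgeR 4.0.16 (R 4.3.3; TMM, filterByExpr by population, terms for age class and population) over 11328 genes, with Benjamini-Hochberg adjustment. Log2 fold changes are PKCd minus SST, with the SE taken from the F statistic. On simulated counts it recovered 1.92%, 43.3% and 81% of genes changed 4, 16 and 64-fold among 10680 genes, and called 4 unchanged genes. Single values were compared with exact permutation tests in scipy 1.17.1. The fit was repeated with RLE or upper-quartile scaling, without a filter or asking for 10 CPM in 4 libraries, without the age term, with replicate numbers as a block, within 1 age class, and after leaving out single libraries; DESeq2 1.42.0 and limma 3.58.1, on log2(TPM + 1) and log2(TPM + 0.1), were also run. The 10 genes and the 16 gene lists were chosen with earlier results of these data known. Genes named beside the 10 were Prkcd and Sst, the called genes or else the 2 most abundant of each list described, all listed neighbours, and the 5 most similar genes of at least 10 TPM; P2rx2, P2rx3, P2rx5, P2rx6, Nt5e and, in the closing section, Adora3, Itgam, Rac2, Arrb2 and Il18 were named after their values were seen. A few genes meeting the naming rule are not reported here.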

Additional observations from a re-analysis of the deposited data

Results flagged for a closer look

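In each sort the highest and lowest of the 4 libraries was compared with the next by Dixon's ratio at its 95% critical value, for 10 genes in 2 sorts, or 20 groups; chance alone picks out about 1 in 20. Gpr34 stood at 289.5 TPM in SST replicate 1, far above the 0.385 to 37.3 TPM of the other SST libraries. P2rx7 stood at 62.5 TPM in PKCd replicate 2, above 21.2 to 25.5 TPM in the other PKCd libraries. P2rx4 stood at 63.3 TPM in SST replicate 4, against 27.2 to 31.0 TPM in the other 3. P2ry6 stood at 3.69 TPM in SST replicate 3, on 6 reads, where the others had 0; with 3 libraries at 0 the ratio is at its maximum whatever the fourth value is, so this is no test and the chance rate does not apply to it.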

How the results depend on the processing

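Among the 10 genes the edgeR count of 2 became 7 with no filter, 6 in DESeq2, 5 with limma on log2(TPM + 1), 0 in the younger or the older libraries alone, and 1 to 4 with 1 library left out (4 without SST replicate 1, 1 without SST replicate 2 or 3). For all genes, 32 calls became 269 with no filter, 454 in DESeq2, 147 and 68 with limma on log2(TPM + 1) and log2(TPM + 0.1), 0 in either age class alone, and 10 to 52 with 1 library left out. For age, 6 calls became 2 with RLE scaling, 249 with no filter, 551 in DESeq2, 53 with limma, and 0 to 2 with 1 library left out; for the interaction, 0 became 25 with no filter and 76 in DESeq2, and it stayed at 0 with each library left out. With no filter 16834 genes were tested. The cause of these shifts was not tested. The genes P2rx4, P2rx7 and Cx3cl1 turned sign without ever being called: P2rx4 (-4.6e-03 with upper-quartile scaling, -0.14 without PKCd replicate 3, -0.19 to 0.30 over the fits with 1 library left out and -0.08 in younger libraries), P2rx7 (-0.08 in younger libraries) and Cx3cl1 (0.19 without PKCd replicate 1, 0.87 without SST replicate 2, 0.04 with limma on log2(TPM + 0.1) and 0.64 in older libraries). With 1 library left out Cx3cl1 ran from -0.95 to 0.87. The other 7 genes were higher in PKCd libraries in all 19 alternatives. With the replicate number as a block the test called 24 genes and 2 of the 10. Deviations of same-numbered libraries correlated at 0.118, 0.139, 0.0804 and 0.211, and at -0.00745 and -0.00974 within age classes. Same-numbered libraries also share age class and depth range. With 2 libraries per sort in an age class, both replicates give the same value by construction. These correlations therefore cannot decide whether the number marks a pairing. In the shallowest library 1 read was worth 1.04 CPM, which limits P2ry6, P2rx4, P2rx7 and Cx3cl1 (24 to 121 reads in PKCd replicates 3 and 4). Low counts in SST libraries also limit the folds of other members. P2ry13 had 4 reads, Cx3cr1 18 and Tmem119 28 in SST replicate 4, and Gpr34 had 6 in SST replicate 2.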

Other observations

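Adora3, the adenosine A3 receptor, had 12.8, 17.2, 26.9 and 6.56 TPM in PKCd replicates 1 to 4 (335, 278, 34 and 13 reads) and 0 reads in all 4 SST libraries, which allows up to 0.187 to 1.92 CPM each; its edgeR adjusted p was 0.223. Among signalling partners, Itgam, the integrin chain CD11b, had 66.1 to 105.9 TPM in PKCd and 0.711 to 12.1 TPM in SST libraries (edgeR adjusted p = 0.114), Rac2, a GTPase of blood cells, 66.1 to 84.1 and 2.47 to 14.9 TPM (0.193), and Arrb2, beta-arrestin 2, 79.8 to 136.9 and 11 to 21.7 TPM (0.169). Il18, a cytokine processed by the inflammasome, went the other way, with 82.5 to 167.6 TPM in PKCd and 281.6 to 354.8 TPM in SST libraries (edgeR adjusted p = 0.654).

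Markers of other myeloid cells stood below those of microglia. Border macrophage markers (8 genes) summed to 15.9 to 527.3 TPM in PKCd and 0.111 to 3.61 TPM in SST libraries, highest in PKCd replicate 2, and 3 were tested with 0 past the threshold in edgeR. Of these, Pf4 had 382.2 TPM in PKCd replicate 2 and 12.4 to 56.4 TPM in the other PKCd libraries, and 0 in SST libraries. Pf4 made up most of the sum in every PKCd library. Mrc1, F13a1, Cbr2, Ms4a7 and Clec12a were higher in PKCd libraries on average, but each had 0 TPM in some PKCd library. Cd163 had 0.121 to 2.11 TPM in PKCd and 0 to 3.61 TPM in SST libraries (log2 fold change 0.19 ± 1.73, SE). Lyve1 had 0 TPM in PKCd and at most 0.521 TPM in SST libraries. Monocyte and neutrophil markers, none of which had enough reads to be tested, summed to 0.331 to 15.9 TPM in PKCd and 0.379 to 195.5 TPM in SST libraries.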
